A study of Mus musculus with 24 samples.

Results

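The comparison described here set mice that had both flown in space and lost Nrf2 against mice with neither exposure. It used 12 of the 24 bone marrow libraries of the study, 6 of FL-KO mice and 6 of GC-WT mice, chosen by the sample labels, with a library per mouse. FL-KO mice were male Nrf2-KO mice that stayed in space for 31 days, and GC-WT mice were male wild-type mice kept on the ground under matched housing. The study's methods place all mice on a C57BL/6 background and give an age of 8 weeks for the flight mice when they were shipped, ahead of launch. The ground mice were kept in Japan and the flight mice were shipped to the US for launch. The flight mice were killed after their return to the ground. Place of handling, flight and return to gravity therefore cannot be told apart in this comparison, and the effects of flight and of Nrf2 loss are read together. Cells from the right pelvis and tibia were frozen in CELLBANKER2, and RNA taken directly from this frozen stock was sequenced. The remaining groups, FL-WT and GC-KO mice (6 each), entered the estimate of the spread and are given beside some results as the single exposures. Of 54752 genes in the table, 12373 had a TPM (transcript abundance scaled to length and to the library total) above 1 in at least 1 of the 24 libraries and were tested.

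Nrf2 (encoded by Nfe2l2) is a transcription factor that Keap1 holds at a low level in unstressed cells. When Keap1 is modified by oxidants, Nrf2 pairs with small Maf proteins, binds antioxidant response elements and raises genes for glutathione, thioredoxin, NADPH supply and detoxification. Bone marrow produces red cells, granulocytes, monocytes, platelets and B cells, so its RNA is a mixture of cell types at many stages. In such bulk RNA, fewer cells of a type and less RNA of that type per cell cannot be told apart. The labelled tissue matched its markers: the beta globin gene Hbb-bs was at a mean of 53789 TPM in GC-WT mice and the neutrophil gene S100a8 at 15105 TPM, while 13 genes of stroma, bone and endothelium summed to between 60.7 and 128 TPM.

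Nfe2l2 itself was read first. Its TPM lay between 17.1 and 26.1 TPM (median 21.4) in GC-WT mice and between 2.22 and 4.31 TPM (median 3.1) in FL-KO mice. Every FL-KO mouse was below every GC-WT mouse (log2 fold change -1.92 ± 0.11 (SE), limma adjusted p = 1.06e-11; two-sided exact permutation of rank sums, p = 0.00216, n = 6 against 6, the smallest p that this design allows). The gene lies on chromosome 2, 75675513 to 75704641 of GRCm38. The mean was 4.97 ± 1.25 TPM (SD, n = 6) in GC-KO mice and 18.6 ± 5.93 TPM (SD, n = 6) in FL-WT mice. The part of the gene that the knockout allele lacks is not given in the labels, and the TPM value covers the whole gene.

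Most genes had a lower TPM in FL-KO than in GC-WT mice. The median log2 fold change of the tested genes was -0.51 on log2(TPM + 1) as deposited. Each library was therefore centred on the median deviation of its genes from their means, and every fold change below is relative to that shift unless the deposited scale is named. After centring the median was 0.034. Calls required a limma adjusted p under 0.1 together with a difference of 2-fold or more on this scale, which understates the change of genes at a few TPM. Relative to the shift, 99 genes (0.800%) were higher and 698 genes (5.64%) were lower in FL-KO mice. On the deposited scale the counts were 17 (0.137%) higher and 2451 (19.8%) lower, and they included 17 of the 99 higher and 698 of the 698 lower genes. Centring moved the fold change of every gene by the same amount, so lower genes kept a 2-fold difference by arithmetic. Their overlap is therefore no added support. The FL-KO mice lay above all GC-WT mice both in TPM and in centred values for 26 genes (0.210%) and below them for 2631 genes (21.3%). Among called genes, 21 of the higher and 682 of the lower genes were free of overlap in this sense. Separation of a gene called lower, where stated below, therefore adds nothing to its call.

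**Figure D1:**
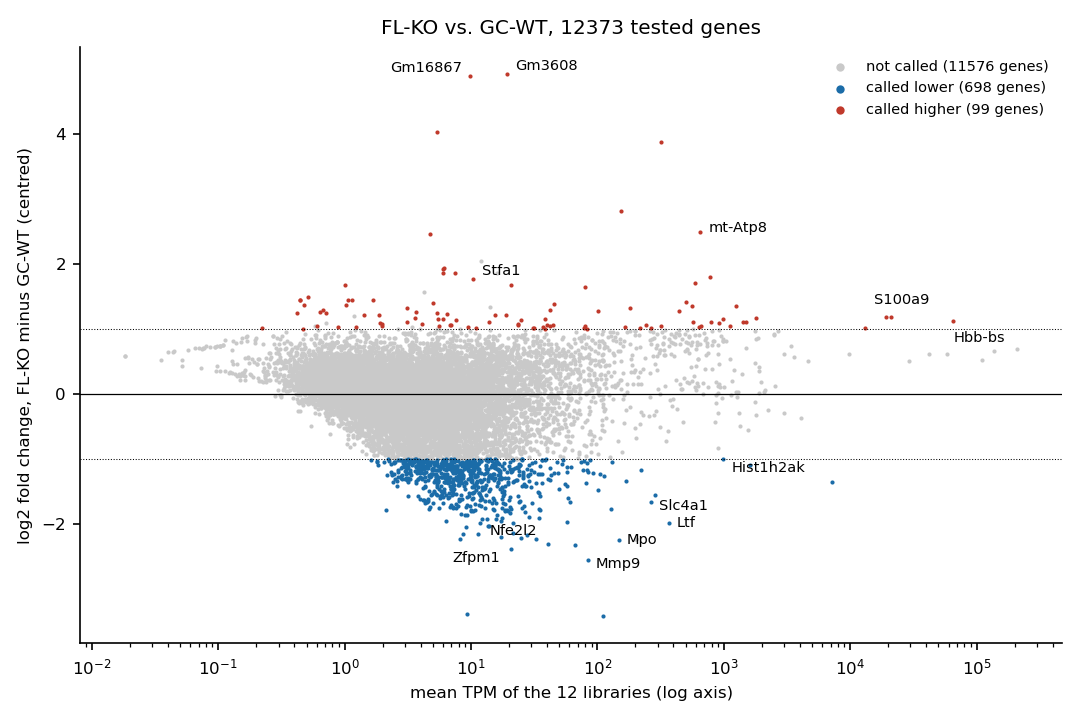
Log2 fold change of FL-KO over GC-WT mice after centring (vertical axis) against the mean TPM of the 12 libraries (horizontal log axis) for each tested gene, with a dot per gene. Blue dots are the 698 genes called lower, red dots the 99 called higher, and dotted lines mark a fold change of 2. Mmp9, Mpo, Ltf and Slc4a1 lie at the lower edge at a mean above 80 TPM, while S100a9 and Hbb-bs are called higher at the abundant end.

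The called genes differed in transcript length and base composition. The 698 lower genes had a median length of 2714 nt and a median GC content of 56.3%, whereas the 99 higher genes had 495 nt and 47.7%. Over all tested genes these medians were 1836 nt and 50.1%. Across the 5018 genes averaging 5 TPM or more, split into 5 equal bins, the median log2 fold change went from 0.22 in the bin of lowest GC content to -0.50 in the bin of highest GC content, and from 0.30 in the shortest to -0.38 in the longest bin. With the trends of each library over GC content and length removed, 49 genes (0.396%) were higher and 297 (2.40%) lower, and they shared 29 and 228 genes with the main calls. This removal was partial: the median still went from 0.070 in the shortest to -0.20 in the longest bin. Over GC content it went from -0.080 to -0.16. Whether length or base composition set these calls was not tested. Counts below are given with these trends removed where the count of a list changed by more than 1.5 times or named genes lost their call. A list count without a share beside it is to be read against the 0.800% higher and 5.64% lower over all tested genes. The lists were chosen with earlier results of these data known, so a share above these is no independent evidence.

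**Figure D2:**
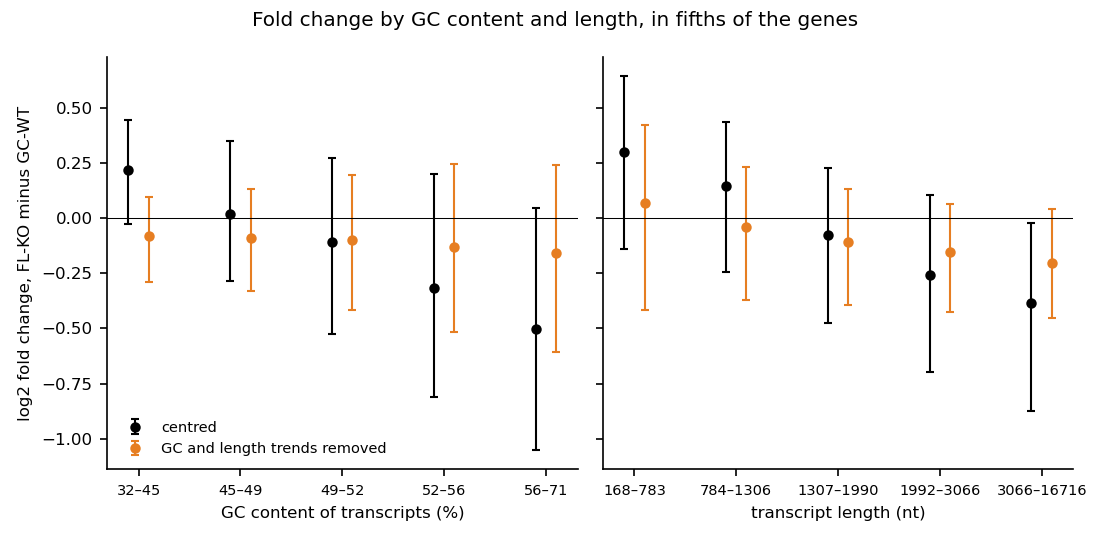
Log2 fold change of FL-KO over GC-WT mice in 5 equal bins of the 5018 genes averaging 5 TPM or more, by transcript GC content (left, %) and transcript length (right, nt). Points are medians and bars the middle 50% of genes, in black after centring and in orange with GC and length trends removed. The black medians descend from left to right in both panels, from 0.22 to -0.50 and from 0.30 to -0.38. The orange medians descend less, and by length they still go from 0.070 to -0.20.

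A single GC-WT mouse stood apart from the other 5. Mouse 10 lay outside the rest of its group by Dixon's limit in 572 of the 5018 genes, 286 high and 286 low, while each other mouse of both groups did so in at most 78. Its Mpo, Laptm5 and Zyx were the lowest of the GC-WT mice and its S100a9 the highest. Without it, 162 genes were higher and 843 lower, and these held 93 of the 99 and 693 of the 698 genes.

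The 10 protein-coding genes with the largest decreases were picked among called genes averaging 5 TPM or more whose groups did not overlap. Their separation was thus a condition of the choice and is no added result. Of all tested genes, 2631 (21.3%) lay below without overlap. Several of the 10 belong to granulocytes and monocytes. Mmp9, the gelatinase of neutrophil tertiary granules, was between 84.8 and 193 TPM (median 154) in GC-WT mice and between 11.2 and 24.5 TPM (median 16.2) in FL-KO mice (log2 fold change -2.55 ± 0.29 (SE), limma adjusted p = 1.41e-07). Mpo, the myeloperoxidase of promyelocyte granules, was between 109 and 327 TPM (median 269.8) in GC-WT mice and between 25.4 and 46.5 TPM (median 32.5) in FL-KO mice (log2 fold change -2.24 ± 0.27 (SE), limma adjusted p = 3.30e-07). The groups did not overlap for either gene, as the choice required, and for both the GC-WT mouse nearest to the FL-KO mice was mouse 10. Fn1, fibronectin, was between 11.4 and 51.8 TPM (median 28.6) in GC-WT mice and between 2.95 and 4.06 TPM (median 3.31) in FL-KO mice (log2 fold change -2.20 ± 0.30 (SE), limma adjusted p = 1.51e-06). Laptm5, a lysosomal membrane protein of blood cells, was between 67.7 and 144 TPM (median 122) in GC-WT mice and between 12.3 and 20.4 TPM (median 14.2) in FL-KO mice (log2 fold change -2.33 ± 0.24 (SE), limma adjusted p = 6.02e-08). Each of these genes was also called lower with GC and length trends removed, with log2 fold changes of -2.16, -2.01, -1.55 and -2.30. In the same order they differed by 0.012, -0.15, -0.16 and -0.11 between FL-WT and GC-WT mice and by -1.67, -1.47, -1.89 and -1.33 in GC-KO vs. GC-WT. All these comparisons share the GC-WT mice, and the difference between them was not tested.

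The other 6 genes of this rank have varied roles. Zyx, zyxin of focal adhesions, was between 41.3 and 84.1 TPM (median 78.3) in GC-WT mice and between 6.58 and 12.5 TPM (median 8.75) in FL-KO mice (log2 fold change -2.31 ± 0.24 (SE), limma adjusted p = 5.07e-08). Fmnl1, an actin-nucleating formin of leukocytes, was between 30.4 and 51.6 TPM (median 44) in GC-WT mice and between 4.1 and 8.61 TPM (median 5.37) in FL-KO mice (log2 fold change -2.22 ± 0.23 (SE), limma adjusted p = 5.77e-08). The highest FL-KO mouse was below the lowest GC-WT mouse in each, as the choice required. Tgfb1, the cytokine TGF-beta1, was between 32.6 and 57.4 TPM (median 52.1) in GC-WT mice and between 4.91 and 10.8 TPM (median 6.14) in FL-KO mice (log2 fold change -2.17 ± 0.19 (SE), limma adjusted p = 1.14e-08). Ube2o, a ubiquitin-conjugating enzyme that removes ribosomal proteins in maturing red cells, was between 32.5 and 78.1 TPM (median 63.8) in GC-WT mice and between 5.78 and 12.3 TPM (median 6.13) in FL-KO mice (log2 fold change -2.23 ± 0.23 (SE), limma adjusted p = 6.47e-08). Ttyh3, a membrane protein of the tweety family, was between 9.14 and 18.8 TPM (median 15.4) in GC-WT mice and between 0.94 and 1.96 TPM (median 1.26) in FL-KO mice (log2 fold change -2.24 ± 0.18 (SE), limma adjusted p = 6.45e-09). Again no FL-KO mouse reached the lowest GC-WT mouse, which the choice required. Zfpm1 completed the set and is described with the erythroid regulators. All 6 were also called lower with GC and length trends removed.

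Part of the Nrf2 target genes was called lower. Of 29 listed genes 25 were tested, 5 were called lower and none higher, with a median of -0.31 beside 0.034 for all tested genes. These 5 of 25 stood against the 5.64% of all genes called lower. At any fold change and in either direction, 19 of the 25 had a limma adjusted p under 0.1. Among all 12373 tested genes, 4522 higher and 4324 lower genes did. On the deposited scale 9 of the 25 were called lower, beside 19.8% of all tested genes, and the list median was -0.86 beside -0.51. G6pdx, the first enzyme of the pentose phosphate pathway and a source of NADPH, was between 32 and 62.7 TPM (median 49.3) in GC-WT mice and between 10.7 and 16.3 TPM (median 13.7) in FL-KO mice (log2 fold change -1.20 ± 0.17 (SE), limma adjusted p = 2.64e-06). Pgd, the next NADPH-producing enzyme of the pathway, was between 66.9 and 110.0 TPM (median 84.7) in GC-WT mice and between 19.6 and 34.6 TPM (median 27.2) in FL-KO mice (log2 fold change -1.13 ± 0.17 (SE), limma adjusted p = 4.83e-06). Gstm1, a glutathione transferase, was between 16.4 and 34.8 TPM (median 30.7) in GC-WT mice and between 6.34 and 9.64 TPM (median 7.9) in FL-KO mice (log2 fold change -1.15 ± 0.17 (SE), limma adjusted p = 4.91e-06). The groups did not overlap for these 3 genes, nor for 682 of the 698 genes called lower. The other called targets, Tkt of the same pathway and Osgin1, were named after their values were seen and had log2 fold changes of -1.04 and -1.06. In GC-KO vs. GC-WT, G6pdx, Pgd and Gstm1 had log2 fold changes of -0.94, -0.88 and -0.90, whereas for FL-WT mice against the same controls they had 0.21, 0.20 and 0.18. Once GC and length trends were removed, G6pdx and Gstm1 remained called among the targets, and with median-of-ratios scaling 1 of the 25 was called lower. Without GC-WT mouse 03, 3 targets were called.

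The classical targets outside the called set are given with their values, as named after they were seen. Nqo1, a quinone reductase, had a log2 fold change of -0.37 ± 0.10 (SE) with means of 3.02 (GC-WT) and 1.12 TPM (FL-KO). Gclm, the regulatory subunit of glutathione synthesis, had -0.49 ± 0.11 and Gclc, its catalytic subunit, -0.72 ± 0.11. Hmox1, heme oxygenase 1, had -0.17 ± 0.16, and the iron storage genes Fth1 and Ftl1 had 0.20 ± 0.080 and 0.11 ± 0.083. Prdx1, a peroxiredoxin, had 0.60 ± 0.093. Thus the listed targets ranged from -1.20 to 0.69 relative to the shift. Of 9 partners and regulators of Nrf2, 8 were tested and none was called relative to the shift, where their median was -0.72. The lowest, the small Maf gene Mafg, was between 18.6 and 29 TPM (median 23.5) in GC-WT mice and between 7.24 and 10.6 TPM (median 7.9) in FL-KO mice (log2 fold change -0.86 ± 0.10 (SE), limma adjusted p = 1.97e-07), without overlap of the groups but short of a fold change of 2. On the deposited scale 5 of the 8 were called lower (19.8% of all tested genes were), Mafg among them (log2 fold change -1.41, limma adjusted p = 2.03e-08), and their median was -1.26.

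Antioxidant response elements near the starts of target genes were looked up to show what Nrf2 can bind there. The core was searched as TGACNNNGC on both strands (GCNNNGTCA on the other) in RefSeq promoter windows of 300 bases (GRCm38.p6), which run from 250 bases before to 50 bases after a gene's start. Of 27025 genes with a window, 14% held the core, and of 21 tested targets with a window, 8 did. G6pdx, which was called lower, and Gclm, Srxn1 and Prdx1, which were not, are shown with the core in capitals and were chosen after their values were seen. The stretches are written along the strand of the gene and come from chrX:74428919-74428947 (minus strand), chr3:122245413-122245441, chr2:152105542-152105570 and chr4:116685456-116685484 (plus strand).
G6pdx: aggcgggtcaGCTCAGTCAaagcacacgc
Gclm: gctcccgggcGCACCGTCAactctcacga
Srxn1: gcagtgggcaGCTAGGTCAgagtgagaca
Prdx1: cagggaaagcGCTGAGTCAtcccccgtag
Counted from the gene's start in RefSeq, the core begins at -57 in G6pdx, -134 in Gclm and -133 in Prdx1, and at 29 within the transcript of Srxn1. GENCODE M21 starts G6pdx further upstream, at 74429194, so the match lies inside that annotated gene. The 4 genes with these matches had log2 fold changes of -1.20, -0.49, -0.45 and 0.60, so that a core was present in a gene called lower as well as in genes that were not called. A match is a description of the letters and not of binding. Gstm1 and Tkt had no match in their windows.

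Erythroid regulators held the list with the lowest median relative to the shift, although with GC and length trends removed the immunoglobulin heavy chain segments were lower (-0.83 against -0.74). Of 11 erythroid transcription factors, 6 were called lower (5.64% of all tested genes were) and none higher, with a median of -1.03. Zfpm1 (FOG1), the cofactor of Gata1, was between 24 and 53.6 TPM (median 36.4) in GC-WT mice and between 3.15 and 5.88 TPM (median 3.66) in FL-KO mice (log2 fold change -2.39 ± 0.17 (SE), limma adjusted p = 1.03e-09). Klf13 was between 19.2 and 37.5 TPM (median 36) in GC-WT mice and between 4.31 and 8.15 TPM (median 5.64) in FL-KO mice (log2 fold change -1.80 ± 0.18 (SE), limma adjusted p = 4.64e-08). Klf1, which drives adult globin and membrane genes, was between 35.2 and 69.6 TPM (median 50.3) in GC-WT mice and between 10.1 and 17.8 TPM (median 12.5) in FL-KO mice (log2 fold change -1.36 ± 0.15 (SE), limma adjusted p = 9.20e-08). No FL-KO mouse reached the GC-WT range in these genes, and Klf1 was not called with GC and length trends removed. The other called factors, named after their values were seen, were Gata1, Gfi1b and Zbtb7a with log2 fold changes of -1.03, -1.36 and -1.32. Lmo2 and Nfe2 were not called and had -0.11 ± 0.11 and -0.46 ± 0.084 (SE). After removal of GC and length trends, 3 of the 6 were called, and the list median was -0.74.

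The genes of the red cell membrane and its spectrin skeleton were likewise called in the lower direction. Of 16 genes, 6 were called lower, beside 5.64% of all tested genes, and none higher, with a median of -0.88. Slc4a1, the anion exchanger band 3, was between 293 and 596 TPM (median 418) in GC-WT mice and between 73 and 121 TPM (median 86.6) in FL-KO mice (log2 fold change -1.66 ± 0.15 (SE), limma adjusted p = 1.76e-08). Sptb, erythroid beta spectrin, was between 31.6 and 71.3 TPM (median 50.6) in GC-WT mice and between 6.77 and 13.9 TPM (median 8.78) in FL-KO mice (log2 fold change -1.68 ± 0.17 (SE), limma adjusted p = 3.91e-08). Ank1, the ankyrin that ties spectrin to band 3, was between 28.7 and 59.3 TPM (median 42.6) in GC-WT mice and between 7.32 and 13.8 TPM (median 9.45) in FL-KO mice (log2 fold change -1.42 ± 0.16 (SE), limma adjusted p = 1.11e-07). The ranges were separate in all 3, as for 682 of the 698 genes called lower. The summed TPM of the 16 genes lay between 371 and 583 in FL-KO mice and between 860.4 and 1774 in GC-WT mice. Once GC and length trends were removed, 3 were called, Slc4a1, Ermap and Rhag, and Sptb and Ank1 were not. The list median was -0.91 for FL-WT against GC-WT mice and 0.086 in GC-KO vs. GC-WT.

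Heme and iron genes had fewer called members. Of 8 enzymes of heme biosynthesis, 1 was called lower, with a median of -0.46. That enzyme was Cpox, coproporphyrinogen oxidase, which was between 36.6 and 74.8 TPM (median 50.7) in GC-WT mice and between 11 and 22 TPM (median 13.1) in FL-KO mice (log2 fold change -1.22 ± 0.15 (SE), limma adjusted p = 5.46e-07). The FL-KO mice stayed below the GC-WT mice. Alas2, the first and rate-limiting erythroid enzyme, had 0.44 ± 0.17 (SE) and was named after its value was seen. Of 9 genes of erythroid iron supply, Steap3, a ferrireductase of endosomes, was the called gene and was between 5.28 and 12 TPM (median 8.27) in GC-WT mice and between 1.34 and 3.37 TPM (median 1.68) in FL-KO mice (log2 fold change -1.17 ± 0.14 (SE), limma adjusted p = 3.47e-07). Their median was -0.31, and Steap3 was no longer called with GC and length trends removed.

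The adult globins stood on the other side. Of the 4 globin genes tested, 2 were called higher and none lower, with a median of 0.82, and Ahsp, their chaperone, was not analysed here. Hbb-bs was between 27605 and 73509.8 TPM (median 59706) in GC-WT mice and between 59739 and 87487 TPM (median 79021) in FL-KO mice (log2 fold change 1.12 ± 0.18 (SE), limma adjusted p = 1.35e-05). Hbb-bt was between 6214 and 16253 TPM (median 12129) in GC-WT mice and between 11868 and 17215 TPM (median 15294) in FL-KO mice (log2 fold change 1.01 ± 0.18 (SE), limma adjusted p = 3.22e-05). In TPM the groups overlapped, as 3 GC-WT mice lay within the FL-KO range of Hbb-bs and 4 within that of Hbb-bt, while the centred values did not overlap. The exact permutation test of rank sums of TPM gave p = 0.026 for Hbb-bs and p = 0.132 for Hbb-bt. On the deposited scale neither was called, and with GC and length trends removed none of the 4 was called. Without GC-WT mouse 05, the lowest in both genes, neither was called, and without GC-WT mouse 03 or FL-KO mouse 01, 1 was. The near-identical copies of alpha and beta globin may share reads, so their split is uncertain.

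**Figure D3:**
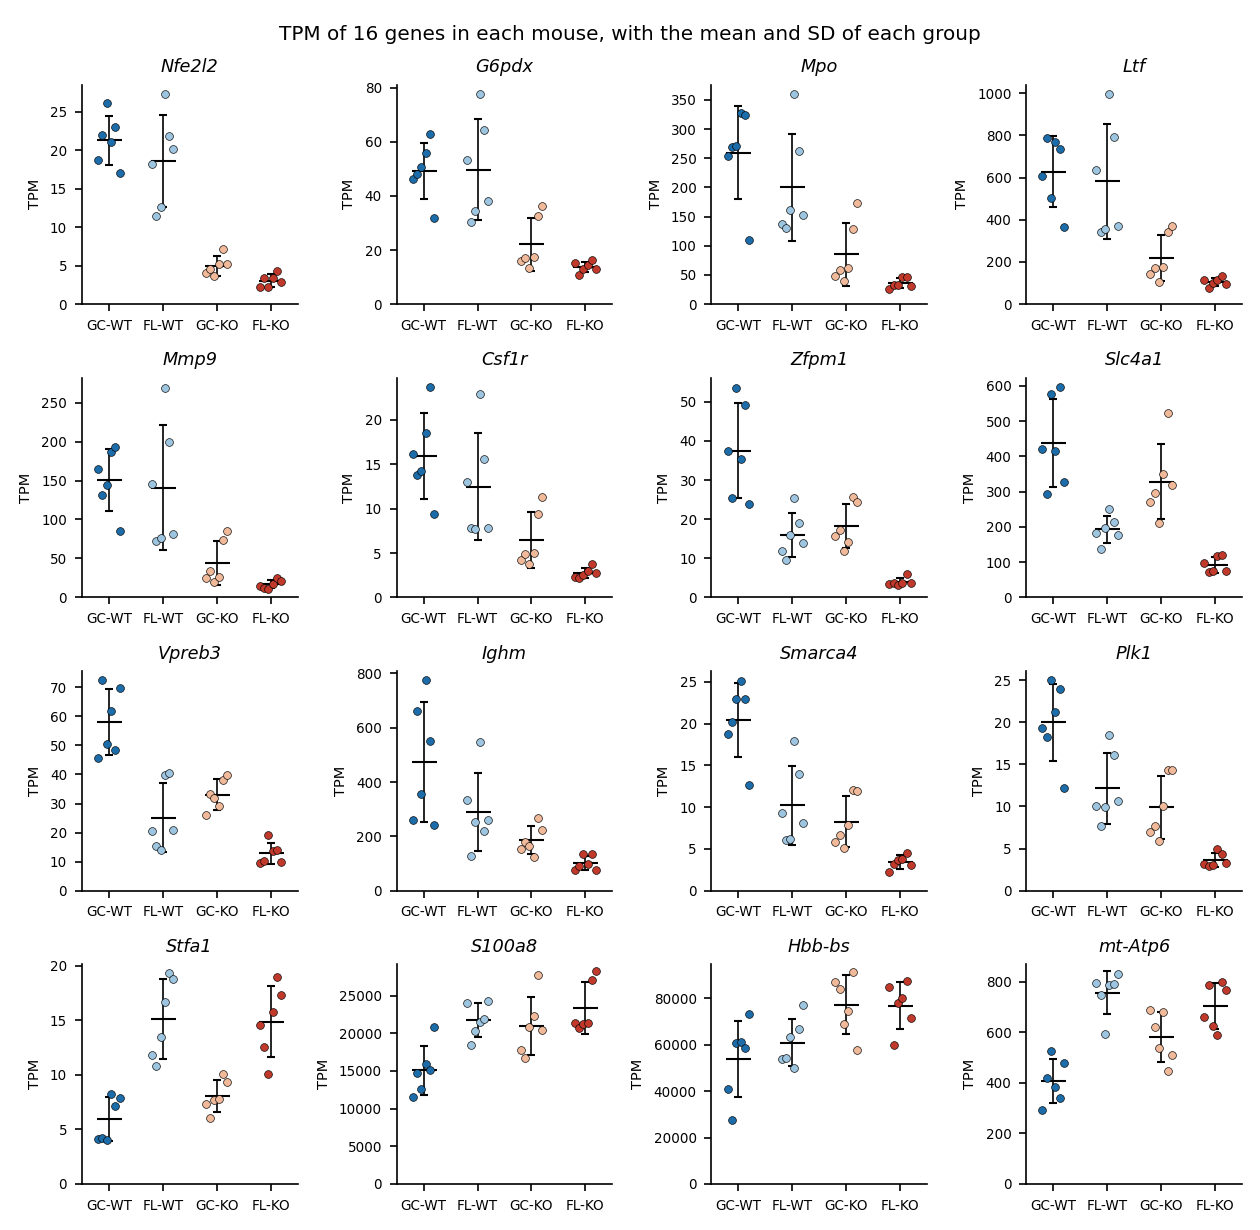
TPM (vertical axes, from 0) of 16 genes in each of 24 mice, by group on the horizontal axis, with 1 dot per mouse and the mean and SD (n = 6) as bars. FL-KO mice (red) lie below all GC-WT mice (dark blue) in the 12 genes from Nfe2l2 to Plk1 and above them in Stfa1 and mt-Atp6, while S100a8 and Hbb-bs overlap in TPM. The paler dots are FL-WT and GC-KO mice.

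Granule genes of developing neutrophils lay on both sides of the shift. Of 7 primary granule genes of promyelocytes, Mpo was called lower (5.64% of all tested genes were) and the median was 0.17. Of 10 secondary and tertiary granule genes, Mmp9 and Ltf were called lower and the median was -0.40. Ltf, lactoferrin, was between 367 and 786 TPM (median 672) in GC-WT mice and between 78.5 and 131 TPM (median 107) in FL-KO mice (log2 fold change -1.98 ± 0.24 (SE), limma adjusted p = 2.64e-07). The FL-KO range lay wholly below. In the same list Camp, the cathelicidin, had 0.92 ± 0.13, Ngp had -0.29 ± 0.10 and Lcn2, lipocalin 2, had -0.50 ± 0.12 (SE), none of them called and all named after their values were seen. The members therefore ranged from -2.55 to 0.92.

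Genes of mature neutrophils were called in both directions. Of 11 genes, 3 were called higher and 1 lower (0.800% and 5.64% over all tested genes), with a median of 0.46. S100a8, a subunit of the calcium-binding protein calprotectin, was between 11541 and 20819 TPM (median 14885) in GC-WT mice and between 20674 and 28336 TPM (median 21357) in FL-KO mice (log2 fold change 1.19 ± 0.12 (SE), limma adjusted p = 3.30e-08). S100a9, the partner subunit, was between 11072 and 25478 TPM (median 16067) in GC-WT mice and between 21956 and 31007 TPM (median 23361) in FL-KO mice (log2 fold change 1.18 ± 0.13 (SE), limma adjusted p = 8.44e-08). In TPM the highest GC-WT mouse, mouse 10 in both genes, reached into the FL-KO range, and the other GC-WT mice were below it. The exact permutation test of rank sums of TPM gave p = 0.00433 for S100a8 and p = 0.026 for S100a9. The remaining higher gene was Clec4d, a lectin receptor, at 1.0, named after its value was seen. Csf3r, the receptor for G-CSF, went the opposite way and was between 40.8 and 66.5 TPM (median 58.6) in GC-WT mice and between 9.07 and 18.3 TPM (median 12.3) in FL-KO mice (log2 fold change -1.52 ± 0.18 (SE), limma adjusted p = 2.56e-07). The 3 higher genes were not called on the deposited scale or with GC and length trends removed, whereas Csf3r was called lower in both. With median-of-ratios scaling 5 genes of the list were called higher.

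Of 6 subunits of the phagocyte NADPH oxidase, 1 was called lower and the median was -0.44. It was Rac2, the GTPase of the complex, which was between 95.7 and 145 TPM (median 129) in GC-WT mice and between 34.2 and 52.7 TPM (median 39.1) in FL-KO mice (log2 fold change -1.07 ± 0.15 (SE), limma adjusted p = 3.17e-06). The groups were apart, but Rac2 was not called with GC and length trends removed. Of 10 monocyte genes, Fn1 and Csf1r were called lower (5.64% of all tested genes were) and the median was -0.64. Csf1r, the receptor for M-CSF, was between 9.38 and 23.7 TPM (median 15.2) in GC-WT mice and between 2.23 and 3.82 TPM (median 2.65) in FL-KO mice (log2 fold change -1.59 ± 0.20 (SE), limma adjusted p = 5.10e-07). Again the ranges did not meet. Ly6c2, a marker of classical monocytes, had 0.0047 ± 0.082 and Ccr2, the chemokine receptor for their exit from marrow, had 0.23 ± 0.16 (SE), both named after their values were seen. None of 12 genes of tissue macrophages was called, and their median was -0.11. The one furthest from 0 at 5 TPM or more, the receptor kinase Axl, was between 4.71 and 11.1 TPM (median 7.67) in GC-WT mice and between 2.52 and 5.42 TPM (median 3.6) in FL-KO mice (log2 fold change -0.37 ± 0.12 (SE), limma adjusted p = 0.0104).

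The stefin A genes, which encode cysteine protease inhibitors of myeloid cells in a cluster on chromosome 16, had the highest list median at 1.57. Of 7 listed genes 6 were tested, 5 were called higher and none lower, against the 0.800% of all genes called higher. Stfa3 was between 1.44 and 5.08 TPM (median 3.12) in GC-WT mice and between 7.66 and 11.5 TPM (median 9.05) in FL-KO mice (log2 fold change 1.94 ± 0.19 (SE), limma adjusted p = 2.73e-08). BC100530 was between 1.66 and 4.09 TPM (median 3.14) in GC-WT mice and between 5.97 and 13 TPM (median 8.47) in FL-KO mice (log2 fold change 1.86 ± 0.18 (SE), limma adjusted p = 3.02e-08). Stfa1 was between 3.98 and 8.23 TPM (median 5.69) in GC-WT mice and between 10.1 and 19 TPM (median 15.2) in FL-KO mice (log2 fold change 1.77 ± 0.15 (SE), limma adjusted p = 6.63e-09). Every FL-KO mouse was above every GC-WT mouse in these 3 genes, which were also among the largest increases, where this was a condition. Stfa2 and Gm5483 were the other called genes. Stefin A genes are close copies of each other and their reads may be split unevenly, so the level of each alone is uncertain. The list median was 1.35 for FL-WT against GC-WT mice and 0.53 in GC-KO vs. GC-WT. After removal of GC and length trends, 2 genes were called, Stfa1 not among them, and the median was 0.80.

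Several B cell genes were lower. Of 15 genes of B progenitors, 5 were called lower (5.64% of all tested genes were) and none higher, with a median of -0.74. Vpreb3, a chaperone of the pre-B receptor, was between 45.7 and 72.5 TPM (median 56) in GC-WT mice and between 9.43 and 19.3 TPM (median 12) in FL-KO mice (log2 fold change -1.57 ± 0.17 (SE), limma adjusted p = 1.05e-07). Cd79a, the signalling chain of the B cell receptor, was between 65.2 and 88 TPM (median 74.8) in GC-WT mice and between 16.2 and 29.1 TPM (median 20.9) in FL-KO mice (log2 fold change -1.22 ± 0.15 (SE), limma adjusted p = 3.69e-07). Blnk, the linker downstream of the receptor, was between 7.68 and 11.9 TPM (median 9.95) in GC-WT mice and between 2.0 and 3.43 TPM (median 2.45) in FL-KO mice (log2 fold change -1.10 ± 0.12 (SE), limma adjusted p = 1.42e-07). No mouse of one group entered the range of the other, as in 682 of the 698 genes called lower. Bach2 and Rag1 were the other called genes, with log2 fold changes of -1.21 and -1.18. Once GC and length trends were removed, 4 of the 15 were called and the median was -0.69, and with median-of-ratios scaling 3 were called. The list had a median of -0.59 for FL-WT against GC-WT mice and -0.44 in GC-KO vs. GC-WT.

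Immunoglobulin RNA was lower in part. Among 11 constant region genes tested, Ighm and Igha were called lower and the median was -0.22. Ighm, the constant region of IgM, was between 241 and 774 TPM (median 453) in GC-WT mice and between 75.9 and 137 TPM (median 95) in FL-KO mice (log2 fold change -1.56 ± 0.26 (SE), limma adjusted p = 1.80e-05). Igha, that of IgA, was between 10.8 and 41.7 TPM (median 17.6) in GC-WT mice and between 1.94 and 5.29 TPM (median 4.25) in FL-KO mice (log2 fold change -1.64 ± 0.34 (SE), limma adjusted p = 2.31e-04). All FL-KO mice were below the GC-WT mice in both. Of 93 tested heavy chain variable segments, 14 were called lower and 1 higher (5.64% and 0.800% over all tested genes), with a median of -0.40. Ighv1-55 was between 5.44 and 30.3 TPM (median 14.3) in GC-WT mice and between 0.66 and 2.06 TPM (median 1.4) in FL-KO mice (log2 fold change -2.15 ± 0.30 (SE), limma adjusted p = 2.17e-06). Ighv1-26 was between 11.1 and 52.6 TPM (median 25.7) in GC-WT mice and between 3.08 and 20.4 TPM (median 4.29) in FL-KO mice (log2 fold change -1.57 ± 0.35 (SE), limma adjusted p = 3.99e-04). Ighv1-9 was between 3.38 and 146 TPM (median 9.72) in GC-WT mice and between 0.32 and 5.27 TPM (median 2.53) in FL-KO mice (log2 fold change -1.75 ± 0.61 (SE), limma adjusted p = 0.0152), and a single GC-WT mouse, mouse 07, held its highest value. The groups were separate for Ighv1-55 and overlapped for the other 2. Of 90 kappa variable segments, 2 were called higher and 2 lower, and the median was 0.14. The lower share was below the 5.64% of all tested genes. Igkv4-63 was between 0 and 3.52 TPM (median 0.885) in GC-WT mice and between 0 and 65.8 TPM (median 1.48) in FL-KO mice (log2 fold change 1.86 ± 0.73 (SE), limma adjusted p = 0.0293), and its mean rested on FL-KO mouse 04. Igkv9-120 was between 8.11 and 40.3 TPM (median 20.2) in GC-WT mice and between 2.58 and 12.4 TPM (median 6.16) in FL-KO mice (log2 fold change -1.12 ± 0.35 (SE), limma adjusted p = 0.00696), and Igkv1-88 was between 6.82 and 53.1 TPM (median 8.8) in GC-WT mice and between 2.28 and 4.59 TPM (median 2.84) in FL-KO mice (log2 fold change -1.11 ± 0.57 (SE), limma adjusted p = 0.087). Igkv4-69 was also called higher. After removal of GC and length trends, 32 heavy and 9 kappa segments were called lower and none and 1 higher. The higher heavy chain segment was Ighv8-10, which was not called without GC-WT mouse 03 or 05. The kappa counts rested on single mice: without FL-KO mouse 12, 4 were higher and none lower, without FL-KO mouse 01 none was lower, without FL-KO mouse 02 or GC-WT mouse 03 1 was lower, and without FL-KO mouse 04 1 was higher. Segments of like sequence may share reads, so single segments are uncertain.

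Of 6 tested genes of plasma cells, Irf4 alone was called, lower, at -1.22 and the median was -0.081, and it was not called with GC and length trends removed. Jchain, the joining chain of secreted antibody, was between 37.3 and 117 TPM (median 84.5) in GC-WT mice and between 48.5 and 82.6 TPM (median 63.8) in FL-KO mice, and its log2 fold change of 0.30 ± 0.28 (SE) turned to -0.24 on the deposited scale. Of 9 genes of MHC class II and dendritic cells, Cd74, the invariant chain, was called lower and the median was -0.18. Cd74 was between 288 and 416 TPM (median 344) in GC-WT mice and between 82.6 and 143 TPM (median 102) in FL-KO mice (log2 fold change -1.17 ± 0.17 (SE), limma adjusted p = 3.35e-06), without overlap. It was not called with median-of-ratios scaling or with GC and length trends removed, where the list median was 0.022.

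Several genes of DNA replication and mitosis were lower. Of 20 genes, 6 were called lower against 5.64% of all tested genes, and none higher, with a median of -0.89. Plk1, a mitotic kinase, was between 12.2 and 25 TPM (median 20.2) in GC-WT mice and between 2.96 and 4.97 TPM (median 3.17) in FL-KO mice (log2 fold change -1.63 ± 0.15 (SE), limma adjusted p = 1.42e-08). Cdt1, which licenses origins, was between 9.79 and 20.6 TPM (median 16.8) in GC-WT mice and between 2.3 and 4.17 TPM (median 2.67) in FL-KO mice (log2 fold change -1.57 ± 0.14 (SE), limma adjusted p = 1.31e-08). Mcm2, a subunit of the replicative helicase, was between 17.5 and 33.5 TPM (median 25.8) in GC-WT mice and between 4.62 and 10.2 TPM (median 5.95) in FL-KO mice (log2 fold change -1.35 ± 0.14 (SE), limma adjusted p = 7.28e-08). The FL-KO mice were below the GC-WT mice in each, as in 682 of the 698 genes called lower. Mcm3, Mcm5 and Mcm7 were the other called members. Once GC and length trends were removed, 5 were called, with Mcm4 and Rrm2 among them and Mcm2, Mcm3 and Mcm5 not. The summed TPM of the 20 genes was 253 to 449.7 in FL-KO and 639.9 to 924 in GC-WT mice. Of 67 clustered histone genes, Hist1h2ak was called lower, a share below the 5.64% of all tested genes, and the median was 0.074. Hist1h2ak was between 1120.2 and 1903 TPM (median 1412) in GC-WT mice and between 408 and 582 TPM (median 496) in FL-KO mice (log2 fold change -1.0 ± 0.13 (SE), limma adjusted p = 6.78e-07), and it was not called with GC and length trends removed.

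Subunits of the SWI/SNF chromatin remodeller lay below the shift. All 14 tested subunits were below 0, from -1.72 to -0.21, and 6 were called lower (5.64% of all tested genes were), with a median of -0.87. Smarca4, the ATPase subunit BRG1, was between 12.7 and 25.1 TPM (median 21.5) in GC-WT mice and between 2.19 and 4.56 TPM (median 3.42) in FL-KO mice (log2 fold change -1.72 ± 0.16 (SE), limma adjusted p = 2.07e-08). Arid1a, a DNA-binding subunit, was between 7.71 and 20.9 TPM (median 17.3) in GC-WT mice and between 1.98 and 3.51 TPM (median 2.31) in FL-KO mice (log2 fold change -1.70 ± 0.19 (SE), limma adjusted p = 1.58e-07). Arid1b, its paralog, was between 5.37 and 11.2 TPM (median 8.9) in GC-WT mice and between 1.19 and 2.45 TPM (median 1.44) in FL-KO mice (log2 fold change -1.36 ± 0.15 (SE), limma adjusted p = 1.39e-07). The groups did not overlap in these genes, nor in 682 of the 698 genes called lower. Their transcripts were long and GC-rich, with a list median of 3184.25 nt and 54.1% GC. With both trends removed none of these 3 genes was called and Smarca2 alone was called lower among the 14, and the median was -0.66.

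Regulators of the leukocyte actin cytoskeleton had a median of -0.95, and 6 of 15 were called lower (5.64% of all tested genes were) and none higher. This list was chosen with earlier results of these data known, so its counts and medians are description only. Wasf2, a subunit of the WAVE complex, was between 13.7 and 29.7 TPM (median 25.1) in GC-WT mice and between 2.5 and 4.72 TPM (median 2.88) in FL-KO mice (log2 fold change -2.03 ± 0.19 (SE), limma adjusted p = 2.30e-08). Myh9, nonmuscle myosin IIA, was between 51 and 129 TPM (median 97.3) in GC-WT mice and between 11.8 and 19.8 TPM (median 16.2) in FL-KO mice (log2 fold change -1.98 ± 0.24 (SE), limma adjusted p = 2.89e-07). Actn1, alpha-actinin 1, was between 20.6 and 41.3 TPM (median 31.4) in GC-WT mice and between 4.53 and 6.6 TPM (median 5.28) in FL-KO mice (log2 fold change -1.79 ± 0.20 (SE), limma adjusted p = 1.42e-07). Separate ranges were seen in all 3 genes, as in 682 of the 698 genes called lower. Fermt3, Tln1 and Flna were the other called members. Here 4 remained called with GC and length trends removed, the named 3 among them. The list median was -0.030 for FL-WT against GC-WT mice and -0.69 in GC-KO vs. GC-WT.

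**Figure D4:**
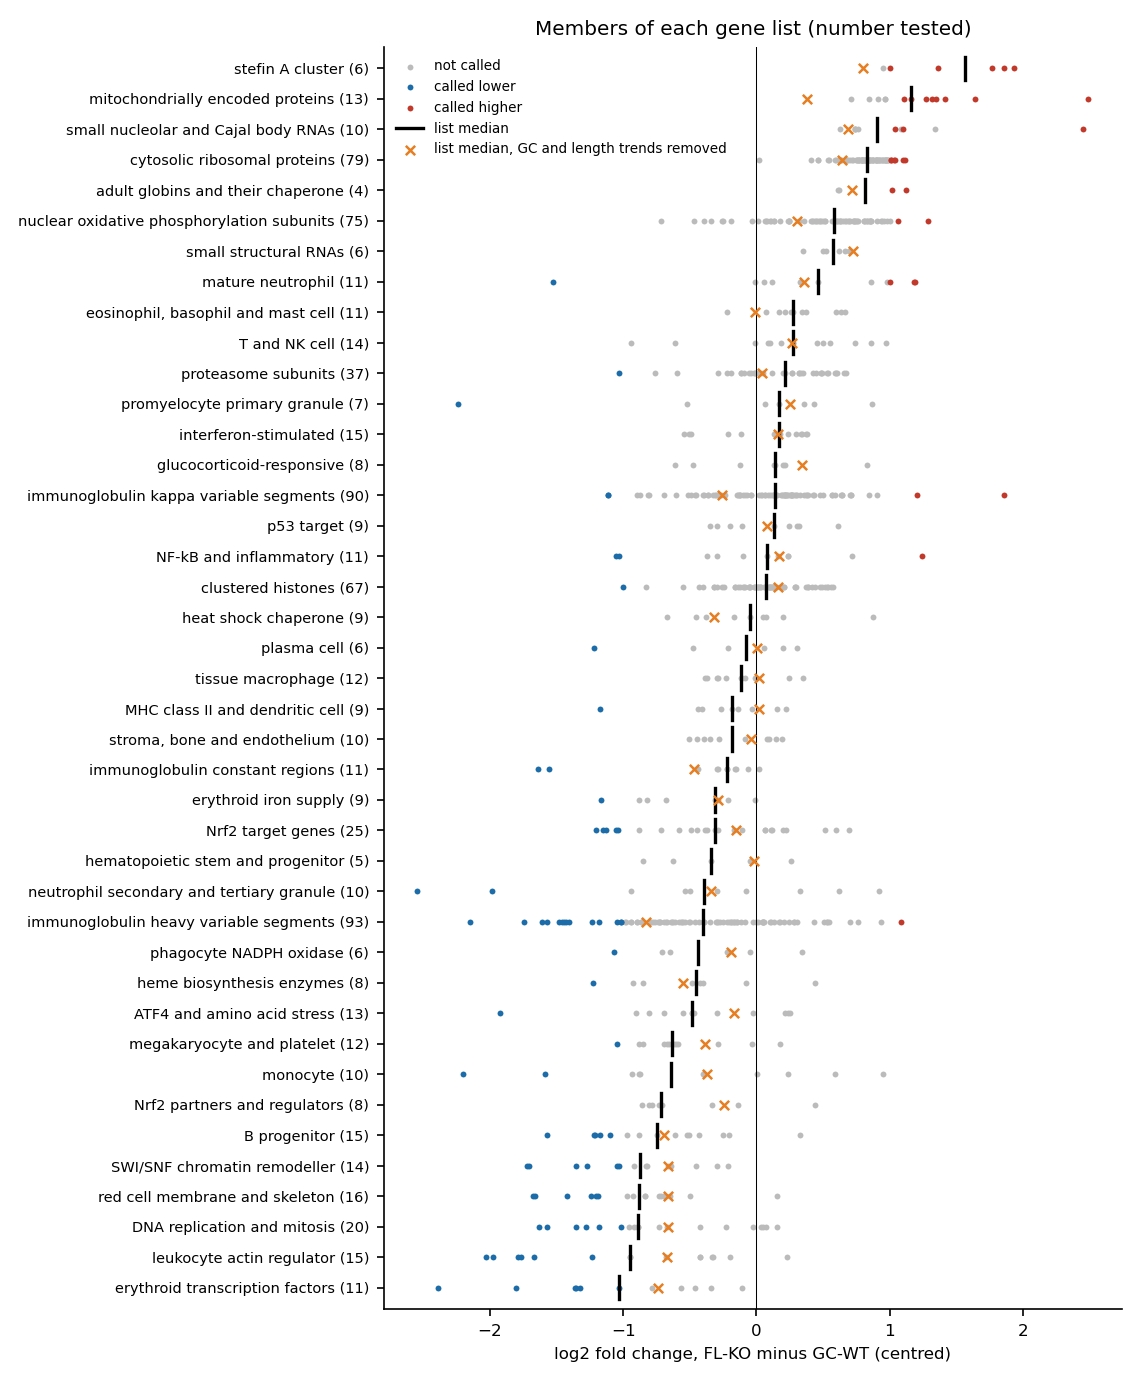
Log2 fold change of FL-KO over GC-WT mice (horizontal axis) for the tested members of 41 gene lists (rows, number tested in brackets), ordered by median, with a dot per gene. Blue and red dots are members called lower and higher, black bars the list medians, and orange crosses the medians with GC and length trends removed. Medians run from -1.03 for erythroid transcription factors to 1.57 for the stefin A cluster, and the crosses lie nearer to 0 for both.

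Among other signals, 1 gene of the ATF4 and amino acid stress list was called. It was Slc7a5, a transporter of large amino acids, which was between 14.1 and 31.3 TPM (median 23) in GC-WT mice and between 2.64 and 4.62 TPM (median 3.0) in FL-KO mice (log2 fold change -1.92 ± 0.18 (SE), limma adjusted p = 1.67e-08), without overlap, and the median of 13 genes was -0.48. Of 11 genes of NF-kB and inflammation, 2 were called lower and 1 higher, with a median of 0.080. Nfkb1, the p50 precursor, was between 12.4 and 20.6 TPM (median 16.3) in GC-WT mice and between 4.31 and 6.47 TPM (median 4.55) in FL-KO mice (log2 fold change -1.05 ± 0.14 (SE), limma adjusted p = 1.72e-06), also without overlap. Nfkb2, at -1.03, and the chemokine Cxcl2, at 1.24, were the others, named after their values were seen. None of the 3 was called with GC and length trends removed, and without GC-WT mouse 07 neither lower gene was called, while without FL-KO mouse 09 or 12 1 was. Of 37 proteasome subunits, Psmd3 was called lower at -1.03 ± 0.11 (SE), a share below the 5.64% of all tested genes, and the median was 0.21. Psmd3 was not called with median-of-ratios scaling, and with GC and length trends removed Psmd2 was called in its place.

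Several lists had no called member. These were 15 interferon-stimulated genes (median 0.17), 9 p53 targets (0.13), 8 glucocorticoid-responsive genes (0.14) and 9 heat shock chaperones (-0.046). Ccng1 at 0.61 ± 0.12 (SE), Dusp1 at 0.83 ± 0.32 and Hspe1 at 0.87 ± 0.12 were the members furthest from 0 in the p53, glucocorticoid and heat shock lists among those at 5 TPM or more. For Ccng1, Dusp1 and Hspe1 the limma adjusted p of these centred fold changes was 7.62e-05, 0.0269 and 1.12e-06. The exact permutation test of rank sums of TPM, which still carries the shift, gave p = 0.818, 0.485 and 0.0649. Of 14 genes of T and NK cells, 11 of eosinophils, basophils and mast cells, 10 of stroma, bone and endothelium and 5 of hematopoietic stem and progenitor cells, none was called either, with medians of 0.27, 0.27, -0.19 and -0.34. Gzma, granzyme A, had 0.97 ± 0.15, Fcer1a of mast cells and basophils 0.60 ± 0.12 and the niche chemokine Cxcl12 -0.45 ± 0.27. In this order, the limma adjusted p of these centred fold changes was 8.66e-06, 2.24e-04 and 0.146. The exact permutation test of rank sums of TPM, which is not relative to the shift, gave p = 0.0931, 0.937 and 0.0152. No tested stem and progenitor gene reached a mean of 5 TPM. Of 12 genes of megakaryocytes and platelets, Gp5 was called lower at -1.05 (with GC and length trends removed, Ppbp was in its place), the median was -0.64, and Gp1bb had -0.88 ± 0.28. Without GC-WT mouse 10, 3 genes of this list were called lower, without FL-KO mouse 09 2 were, and without FL-KO mouse 01 or 11 or GC-WT mouse 05, 06 or 08 none was.

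Mitochondrially encoded genes were higher in part. Of 13 protein genes of the mitochondrial chromosome, 8 were called higher (0.800% of all tested genes were) and none lower, with a median of 1.16. The ATP synthase gene mt-Atp6 was between 293 and 527 TPM (median 402) in GC-WT mice and between 591 and 798 TPM (median 715) in FL-KO mice (log2 fold change 1.35 ± 0.15 (SE), limma adjusted p = 1.35e-07). The complex I gene mt-Nd1 was between 204 and 585 TPM (median 357) in GC-WT mice and between 536 and 764 TPM (median 627) in FL-KO mice (log2 fold change 1.42 ± 0.18 (SE), limma adjusted p = 7.78e-07), and mt-Nd6, of the same complex, was between 22.9 and 112 TPM (median 51.2) in GC-WT mice and between 81.3 and 121 TPM (median 105) in FL-KO mice (log2 fold change 1.64 ± 0.25 (SE), limma adjusted p = 5.66e-06). For mt-Atp8, next to mt-Atp6, the range was between 44.9 and 1094 TPM (median 229) in GC-WT mice and between 556 and 1286 TPM (median 956) in FL-KO mice (log2 fold change 2.49 ± 0.49 (SE), limma adjusted p = 1.29e-04). The groups were separate in TPM for mt-Atp6, which was picked on that condition, and overlapped for the other 3. After removal of GC and length trends, mt-Atp8 alone was called among the 13, on the deposited scale 2 and with median-of-ratios scaling 12 were called higher. The median was 0.38 with the trends removed. Gm10222, a nuclear copy of mitochondrial sequence on chromosome 1, 24612407 to 24612700, was between 16 and 100.2 TPM (median 66.9) in GC-WT mice and between 159.8 and 292 TPM (median 261) in FL-KO mice (log2 fold change 2.81 ± 0.79 (SE), limma adjusted p = 0.00362). Nuclear copies share reads with the mitochondrial genes, so its value is uncertain.

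Nuclear genes of respiration and translation lay mostly above the shift. Of 75 nuclear subunits of oxidative phosphorylation, 67 were above 0 and 2 were called higher (0.800% of all tested genes were), with a median of 0.59. Atp5k, of ATP synthase, was between 20.1 and 47.1 TPM (median 30.9) in GC-WT mice and between 42.4 and 68.8 TPM (median 51) in FL-KO mice (log2 fold change 1.29 ± 0.18 (SE), limma adjusted p = 2.37e-06), and Cox7b, of complex IV, was between 25.9 and 45.4 TPM (median 31.1) in GC-WT mice and between 40.3 and 56.6 TPM (median 46) in FL-KO mice (log2 fold change 1.06 ± 0.11 (SE), limma adjusted p = 4.55e-08). The groups overlapped in TPM in both. All 79 tested proteins of the cytosolic ribosome were above 0, from 0.021 to 1.11, with a median of 0.83, and 6 were called higher (against the same 0.800%). Rpl22 was between 145 and 222 TPM (median 182) in GC-WT mice and between 229.6 and 292 TPM (median 248) in FL-KO mice (log2 fold change 1.01 ± 0.097 (SE), limma adjusted p = 2.58e-08). Every FL-KO mouse was above every GC-WT mouse, but Rpl22 was named among the largest increases, for which this was a condition. Of the 79 proteins, 3 lay above without overlap in TPM and centred values, against 0.210% of all tested genes. Rps12 was between 454 and 932 TPM (median 612) in GC-WT mice and between 809.6 and 1102 TPM (median 930.3) in FL-KO mice (log2 fold change 1.11 ± 0.13 (SE), limma adjusted p = 1.35e-07), and Rps24 and Rpl30 had log2 fold changes of 1.10 ± 0.14 and 1.04 ± 0.10 (SE), with overlap in TPM. Without GC-WT mouse 10, the counts became 27 ribosomal and 8 respiratory genes, without FL-KO mouse 12 or GC-WT mouse 03, 3 ribosomal genes were called, and without FL-KO mouse 09 or 11, 10 were. The respiratory count was 5 without FL-KO mouse 09 and 4 without GC-WT mouse 06. With median-of-ratios scaling 58 ribosomal and 18 respiratory genes were called higher, and on the deposited scale none of either was called higher and 2 respiratory genes were called lower. With GC and length trends removed 3 ribosomal genes (Rpl22, Rps19 and Rpl36) and 2 respiratory genes (Atp5k and Ndufb2) were called higher. Ribosomal transcripts were short, with a median of 711.50 nt, and their list median was 0.64 with GC and length trends removed and 0.29 on the deposited scale. Many ribosomal proteins have processed pseudogenes that share reads with them, and 35 of the 99 higher genes are typed as pseudogenes.

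Some small noncoding RNAs of the nucleus were also called higher. Of 10 tested small nucleolar and Cajal body RNAs, 3 were called higher (0.800% of all tested genes were), with a median of 0.90. Scarna2, a guide RNA of Cajal bodies, was between 709 and 1778 TPM (median 1151) in GC-WT mice and between 1438 and 1885 TPM (median 1688) in FL-KO mice (log2 fold change 1.10 ± 0.16 (SE), limma adjusted p = 3.48e-06). Scarna13, of the same class, was between 661 and 1247 TPM (median 926) in GC-WT mice and between 1206 and 1523 TPM (median 1265) in FL-KO mice (log2 fold change 1.04 ± 0.14 (SE), limma adjusted p = 1.07e-06). The highest GC-WT mouse reached the FL-KO range in both, and Snora23 was the remaining called gene. Scarna13 was not called with GC and length trends removed. None of the small structural RNAs Rn7s1, Rn7s2, Rn7sk, Rpph1 and Rmrp was called, and Rn7s2, part of the signal recognition particle, was between 148102 and 246072 TPM (median 203702) in GC-WT mice and between 195661 and 260847 TPM (median 217564) in FL-KO mice.

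Among genes of 5 TPM or more without overlap, the largest increases belonged to 3 genes near 0 in wild-type mice. Gm16867, typed as protein coding on chromosome 14, 69363504 to 69503362, was listed at 0 in each GC-WT mouse and lay between 16.7 and 22.9 TPM in FL-KO mice. Gm27177, an antisense gene on chromosome 14, 69582164 to 69683286, was at 0.01 TPM or less in GC-WT mice and between 6.86 and 18.3 TPM in FL-KO mice. Gm3608, a pseudogene on chromosome 1, 105455971 to 105458829, was between 0.60 and 1.09 TPM (median 0.815) in GC-WT mice and between 30.4 and 44.5 TPM (median 37.5) in FL-KO mice (log2 fold change 4.92 ± 0.071 (SE), limma adjusted p = 9.54e-25). None of these overlapped between the groups, as the choice required. Gm16867 and Gm27177 passed the filter of TPM above 1 through Nrf2-KO libraries alone. Means in GC-KO mice were 33, 25.5 and 38.3 TPM, and in FL-WT mice Gm16867 was at 0, Gm27177 at 0.0117 and Gm3608 at 0.94 TPM. Thus they were high in both Nrf2-KO groups and low in both wild-type groups. Among noncoding decreases, Gm43778, a gene model to be checked experimentally on chromosome 5, 55652949 to 55653147, lay between 12.9 and 22.7 TPM in GC-WT mice and was listed at 0 in 5 of 6 FL-KO mice. Gm43778 varied widely in the single exposures, between 0 and 31.1 TPM in FL-WT and between 0 and 30.3 TPM in GC-KO mice.

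Abundant classes were compared by their share of TPM. The top 100 genes of a library held 82.2% ± 1.71 (SD, n = 6) in GC-WT and 87.1% ± 1.28 (SD, n = 6) in FL-KO libraries (two-sided exact permutation of the difference in means, p = 0.00216, adjusted over 4 classes 0.00866). The lowest FL-KO mouse, at 85.9%, was above the highest GC-WT mouse, at 85.1%. Globins held 16.4% ± 4.38 and 19.4% ± 2.59 (exact permutation test, adjusted p = 0.26), and small structural RNAs held 48.8% ± 7.18 and 51.2% ± 4.46 (adjusted p of the exact test 0.491). Both ranges overlapped widely between the groups. Mitochondrially encoded genes held 0.843% ± 0.266 and 1.22% ± 0.217 (exact permutation test, adjusted p = 0.0606), with GC-WT mouse 06 within the FL-KO range. When the 5 small structural RNAs were left out and the rest rescaled, the globin share was 31.6% ± 5.56 in GC-WT and 39.6% ± 2.88 in FL-KO mice (exact permutation test, adjusted p = 0.00649).

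**Figure D5:**
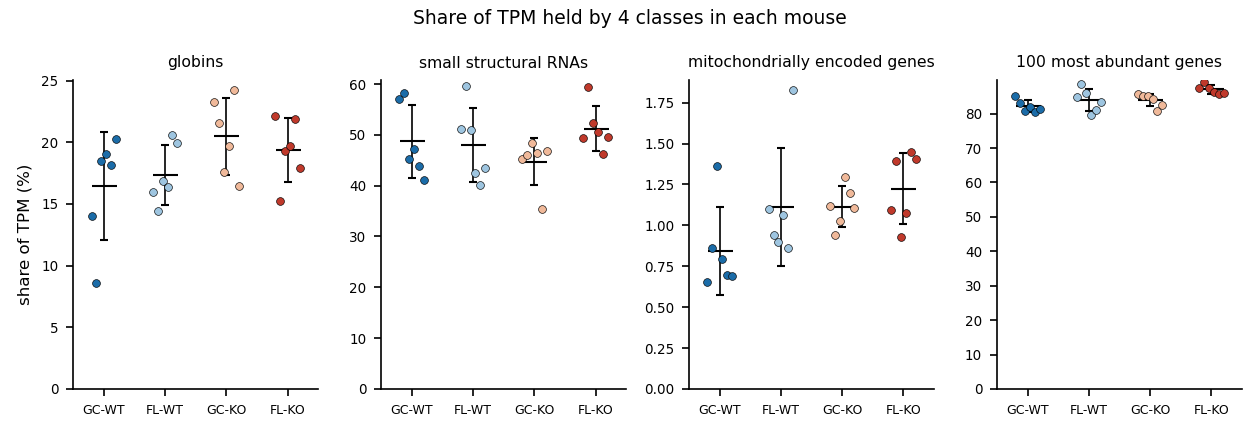
Share of TPM (vertical axes, %, from 0) of 4 gene classes in each mouse by group, with 1 dot per mouse and the mean and SD (n = 6) as bars. The 100 most abundant genes held more in each FL-KO mouse (85.9% or above) than in any GC-WT mouse (85.1% or below), whereas the globin and small RNA shares overlap.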

How the data were processed

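Bone marrow RNA of 24 mice was measured with a library per mouse. The authors isolated RNA with ISOGEN-LS, made libraries (MGIEasy RNA Directional Library Prep Set) for the DNBSEQ-G400, aligned the reads to mm10 (GRCm38) by STAR 2.6.1 and used RSEM 1.3.1 for TPM, per the paper and the submitters' processing notes. The deposited table holds TPM per gene, with column sums of 999999.5 to 1000001.1. It gives no counts, so depth is unknown and no interval for counting error is given. TPM is relative within a library, so a rise of abundant RNAs lowers all other values.

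Groups were taken from the labels. Genes with TPM above 1 in at least 1 library were analysed as log2(TPM + 1), centred by library on the median deviation from the gene means, with limma 3.58.1 (R 4.3.3) in a fit of a mean per group to all 24 libraries and the contrast FL-KO minus GC-WT. P-values were Benjamini-Hochberg adjusted over 12373 genes. Thresholds and filter followed the paper's methods. Single genes and the shares of TPM of 4 classes were tested with exact two-sided permutation tests over mice. For a gene whose groups did not overlap in TPM the exact p was 0.00216, the smallest possible. For genes with overlap it is printed in part. Each mouse is a separate animal. Lists are described by counts and medians, without a test. Coordinates, types, lengths and GC content came from GENCODE M21 (both were known for 12370 of the tested genes), and promoter windows from RefSeq. Python 3.11.15, pandas 2.3.3, numpy 2.4.6, scipy 1.17.1 and matplotlib 3.10.9 were used, and the steps were tested on simulated data. The simulated library shifts were unrelated to group, and no trend over GC content or length was simulated.

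The members and the 41 gene lists were chosen with earlier results of these data known. Named were Nfe2l2; the 10 largest changes of protein-coding and 3 of other genes in each direction among called genes averaging 5 TPM or more over the 12 libraries and no overlap in TPM and centred values (6 coding increases qualified); and in each list up to 3 called members, or the member with the largest change where none was called, at that mean. A gene that this rule selects is not reported here. Names outside this rule, among them the called members listed without a TPM range, were chosen after their values were seen. Alternatives were TPM as deposited, median-of-ratios scaling, quantile normalization, a pseudocount of 0.1, no filter, TPM above 1 in at least 6 libraries, a mean-expression trend, a fit to both compared groups alone, a stricter adjusted p (0.05), any fold change, leaving out 5 small structural RNAs, removing GC content and length trends, and leaving out each of the 12 libraries.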

Additional observations from a re-analysis of the deposited data

Results flagged for a closer look

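Each of the 86 named genes and each of the 4 shares of TPM was examined for a mouse standing apart from the other 5 of its group, by the gap to its nearest neighbour over the range of the group. Of the 180 groups, 25 had such a mouse, where chance alone flags about 1 in 20. The values share mice, so these groups are not independent.

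GC-WT mouse 10 stood apart in 5 genes. It had the lowest GC-WT TPM of Laptm5 (67.71), Zyx (41.27), Mpo (109.2) and Klf13 (19.19), and the highest of S100a9 (25480). In Laptm5, Zyx, Mpo and Klf13 it lay nearest to the FL-KO mice, and leaving it out raised the counts of called genes.

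FL-KO mouse 11 stood apart on the high side in 10 genes. Its TPM was 5.88 for Zfpm1, 1.96 for Ttyh3, 8.61 for Fmnl1, 10.75 for Tgfb1, 2.73 for Gm43778 (0 in the other 5), 8.15 for Klf13, 6.47 for Nfkb1, 2.45 for Arid1b, 4.72 for Wasf2 and 20.42 for Ighv1-26.

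The other flags were spread over 8 mice. FL-KO mouse 12 was highest for Rpl22 (291.6) and Scarna13 (1523), FL-KO mouse 09 for Cxcl12 (44.66), FL-KO mouse 01 for Dusp1 (39.69) and FL-KO mouse 04 for Igkv4-63 (65.84). GC-WT mouse 06 was highest for mt-Atp8 (1094) and for the share of mitochondrially encoded genes (1.363% of TPM). GC-WT mouse 07 was highest for Ighv1-9 (145.7) and GC-WT mouse 03 for Igkv1-88 (53.1). GC-WT mouse 08 had 0.01 TPM of Gm27177, with 0 in the other 5.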

How the results depend on the processing

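The number of genes higher in FL-KO vs. GC-WT relative to the shift was 99, and the number lower was 698. The higher count was 17 with TPM as deposited, 257 with median-of-ratios scaling, 471 with a pseudocount of 0.1, 17 with no filter, 4522 with no minimum fold change, 189 without the 5 small structural RNAs and 49 with GC content and length trends removed. The lower count was 2451 with TPM as deposited, 1121 with a pseudocount of 0.1, 2060 with no filter, 4324 with no minimum fold change and 297 with GC content and length trends removed. Median-of-ratios scaling gave 537 lower genes, and quantile normalization gave 126 higher and 505 lower genes. Of the 698 lower genes 514 were also called with median-of-ratios scaling, 485 with quantile normalization and 228 with GC content and length trends removed. Leaving out 1 library gave 92 to 162 higher and 639 to 843 lower genes, and the library with the largest effect was GC-WT mouse 10 (162 and 843). Among lists, the single lower histone gene was not called without FL-KO mouse 02, 04 or 12 or GC-WT mouse 03, 06 or 08, nor the proteasome gene without FL-KO mouse 02 or GC-WT mouse 08. Lower heme enzymes were 2 without FL-KO mouse 09 or GC-WT mouse 05, and lower iron genes 2 without GC-WT mouse 05. Lists without a higher call gained 1 without GC-WT mouse 10 (granule, monocyte, T and NK cell), GC-WT mouse 05 (monocyte, T and NK cell), FL-KO mouse 09 (monocyte), 02 (T and NK cell) or 12 (glucocorticoid-responsive), and the T and NK cell list gained 1 lower call without GC-WT mouse 10 or FL-KO mouse 02. Of the 74 named genes called in the comparison, none changed direction under any alternative run, and 27 were no longer called with GC content and length trends removed, 14 with TPM as deposited, 17 with quantile normalization and 12 with median-of-ratios scaling. Among the named genes that were not called, the direction of Axl turned to 0.174 and that of Fcer1a to -0.0128 with GC content and length trends removed, and that of Jchain to -0.24 with TPM as deposited, -0.164 with no filter and -0.331 with GC content and length trends removed. The difference in the share of TPM of globins was 2.93 percentage points and became 7.98 without the 5 small structural RNAs (adjusted p = 0.00649, exact permutation test). For mitochondrially encoded genes it was 0.38 and became 0.864 without these RNAs (adjusted p = 0.0173, exact permutation test). Leaving out 1 library gave differences of 0.335 to 0.484 for the mitochondrial share, and the adjusted p was under 0.05 without these 2 libraries in turn, GC-WT mouse 06 (0.484, 0.00866) and FL-KO mouse 04 (0.439, 0.039; exact permutation test). No cause of these changes was tested, except that fewer or more genes enter the fit with another filter. No paired analysis was possible because FL-KO and GC-WT mice are separate animals. Depth is unknown, so low TPM values carry an error that cannot be given.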
